A study of Homo sapiens with 105 samples.

Results

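Caco-2 cells were transfected with lipopolysaccharide (LPS) of Proteus mirabilis, which the study used as a control for the LPS present in its vesicle RNA. Here they are set against cells transfected with a control siRNA that targets no gene. The members are the 15 RNA-seq libraries whose titles name transfected LPS or the siRNA at 2 ng, at 10 or 24 h, in a series with 90 others. Transfected LPS has 8 of them, and siRNA has 7. Caco-2 is a colon adenocarcinoma line that grows as an enterocyte-like sheet. The cells carry no engineered allele, and both arms received the same lipid transfection reagent. The LPS arm got LPS and no siRNA, and the control arm got siRNA and no LPS, so an effect of LPS and the absence of siRNA cannot be told apart here. The labels give the LPS as 1 ng per µl. The methods and a supplementary legend of the study write this dose per ml instead. The study also measured the LPS in its vesicle RNA and gives it per ml, at about the same level. This speaks for the dose per ml, and the labels alone give it per µl. The labels do not state the volume added, on which the amount of LPS per well depends. The methods and the legend of the study give it as a few µl of the LPS solution. With the dose per ml, each well thus got far less than 1 ng of LPS. The results below hold for the dose used, and larger amounts of transfected LPS were not tested. Beside these arms the report uses cells transfected with 2 ng of RNA from P. mirabilis outer membrane vesicles (OMVs), cells given LPS in the medium at a labelled 0.2 ng per µl (again per ml in the methods), cells given the OMVs themselves, and cells given PBS. All of these are at 10 and 24 h.

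LPS is the lipid-anchored sugar chain of the outer membrane of Gram-negative bacteria. Outside the cell it is handed by LBP and CD14 to the receptor TLR4 with its partner MD-2 (gene LY96), which signals through MYD88 and TICAM1 to the transcription factor NF-kappaB. In the cytosol of human cells it is bound by caspase-4 and caspase-5, which cut gasdermin D (GSDMD) into a membrane pore and can process interleukin-18. In the TLR4 route, NF-kappaB switches on its own brakes (NFKBIA, TNFAIP3), chemokines and antimicrobial genes, so these genes are the usual readout of that route. The caspase route acts by cutting proteins, which RNA levels do not show. Unchanged RNA therefore does not tell whether LPS was sensed in the cytosol.

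The comparison was fitted without the libraries of lanes 2 to 4 of 1 flow cell, because the labelled time of libraries from these lanes is in doubt. This left 9 of the 15 libraries, 5 with LPS (3 at 10 h, 2 at 24 h) and 4 with siRNA (2 at each time). Each of these 9 was nearest in expression to other libraries of its own labelled time. Of the 6 libraries left out, 3 were. Of these 6, 2 also stood apart in genes that OMVs raise. The left-out LPS library at 24 h labelled replicate 4 had 186 CPM (counts scaled to a library size of 1000000) of C3, and the left-out siRNA library at 10 h labelled replicate 5 had 240.2 CPM. The other 13 libraries of the comparison had 39.1 to 97.6 CPM. In the OMV libraries that were kept, C3 was 215 to 253 CPM. The 3 OMV libraries of the doubted lanes had 47.7 to 112 CPM, against 52.2 to 100.03 CPM over all PBS libraries. These levels go against the labelled treatment, which is thus in doubt for libraries of these lanes as well as the time. Each result below is therefore given without these lanes, and counts with them stand beside those that change.

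**Figure D1:**
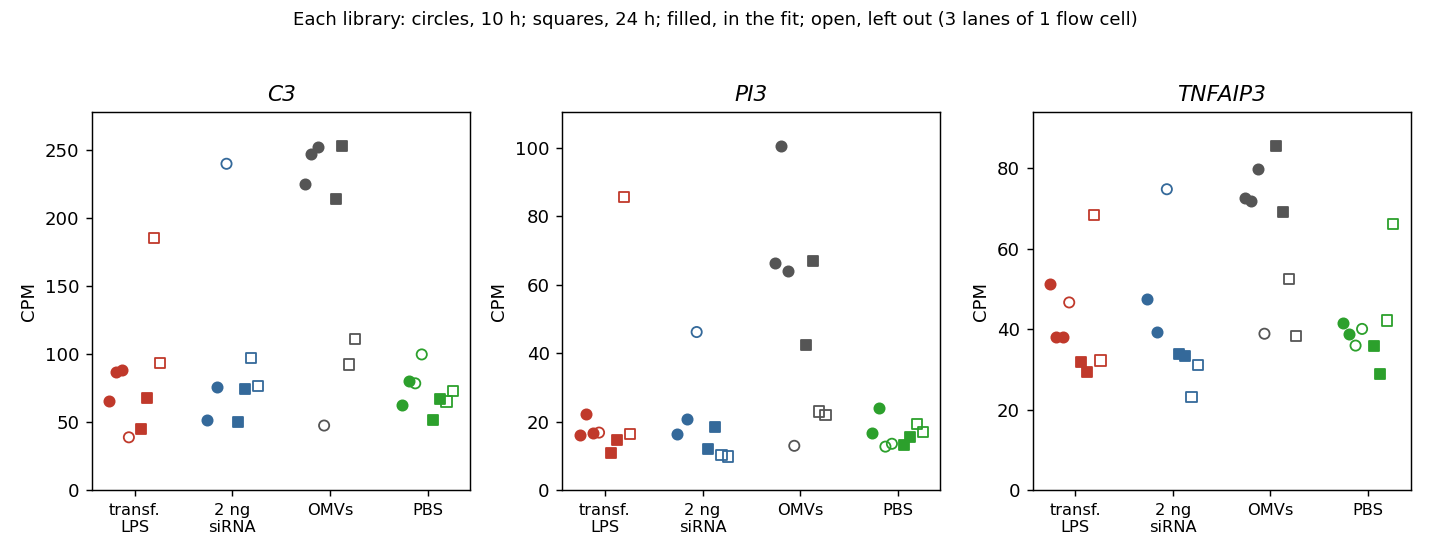
Levels of C3, PI3 and TNFAIP3 in CPM (vertical axes) in each library of 4 treatments at 10 h (circles) and 24 h (squares), filled where the library was in the fit and open where it was left out. The ranges of filled libraries with transfected LPS overlap those with siRNA and PBS, and lie below every filled OMV library (for C3, 44.9 to 88.6 CPM with LPS, 50.2 to 75.9 CPM with siRNA, 215 to 253 CPM with OMVs and 52.2 to 80.2 CPM with PBS). The open LPS square at 85.5 CPM of PI3 and the open siRNA circle at 46.2 CPM stand apart from their groups.

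The labels do not say whether replicates came from separate cultures, so p-values measure only the spread between these samples, which may be technical. Library totals were 1395294 to 6706339 counts over the 9 libraries (median 5142084). The lowest was an LPS library at 24 h, replicate 3. The 12 epithelial markers were all present, summing to 8741 to 10540 CPM with LPS and 9082 to 11154 CPM with siRNA. Markers of leukocytes summed to 31.1 to 216 CPM with LPS and 26.5 to 195 CPM with siRNA, with 12 of 18 under 1 CPM on average and CD2, MS4A1, FCGR3A, TYROBP and S100A8 at 0. Stromal markers summed to 45.3 to 98.999 CPM with LPS and 49.8 to 84.8 CPM with siRNA, with TEK, KDR, POSTN, EMCN and COL1A2 at 0. Markers of secretory gut lineages summed to 68.0 to 109 CPM with LPS and 68.4 to 118 CPM with siRNA, with NEUROD1, DEFA5 and DEFA6 at 0. In such bulk RNA, fewer cells of a kind and less RNA per cell cannot be told apart.

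Transfected LPS changed no gene past the threshold. Over both times together, 0 of 19233 genes tested (0%) had an adjusted p under 0.05 in edgeR's quasi-likelihood test with Benjamini-Hochberg adjustment. At an unadjusted p under 0.05 there were 574 genes (2.98%), 279 higher (1.45%) and 295 lower (1.53%) with LPS. DESeq2 and limma voom also called 0 genes, with 430 and 648 genes at an unadjusted p under 0.05. At 10 h the edgeR test called 0 genes (521 unadjusted, 2.71%) and at 24 h 0 genes (601 unadjusted, 3.12%). The effect at 24 h minus that at 10 h also gave 0 genes (566 unadjusted, 2.94%). DESeq2 and voom called 0 genes in each of these as well, with 371 and 558 unadjusted at 10 h, 419 and 675 at 24 h, and 426 and 612 for the difference between the times. The count stayed at 0 for each of these 4 comparisons in every other fit, those with all 15 libraries and those leaving out any 1 library included. The smallest adjusted p of the edgeR test was 0.801, for the unnamed gene ENSG00000257941, at 2.25 CPM with LPS and 0.533 CPM with siRNA (log2 fold change 2.33 ± 0.54, SE).

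The intervals show how large a missed change could be. For genes at 10 to 100 CPM, the 95% interval of the log2 fold change reached a median of 0.20 to each side, and for 99.9% of these 8394 genes it lay within −1 and 1. For genes over 100 CPM the median reach was 0.12. For the 1533 genes under 1 CPM it was 1.15, and only 2.41% of these had an interval within −1 and 1, so that changes of that size in most of them were not detectable at this depth. Of all genes tested, 82.3% had an interval within −1 and 1, and 59.2% within −0.5 and 0.5.

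**Figure D2:**
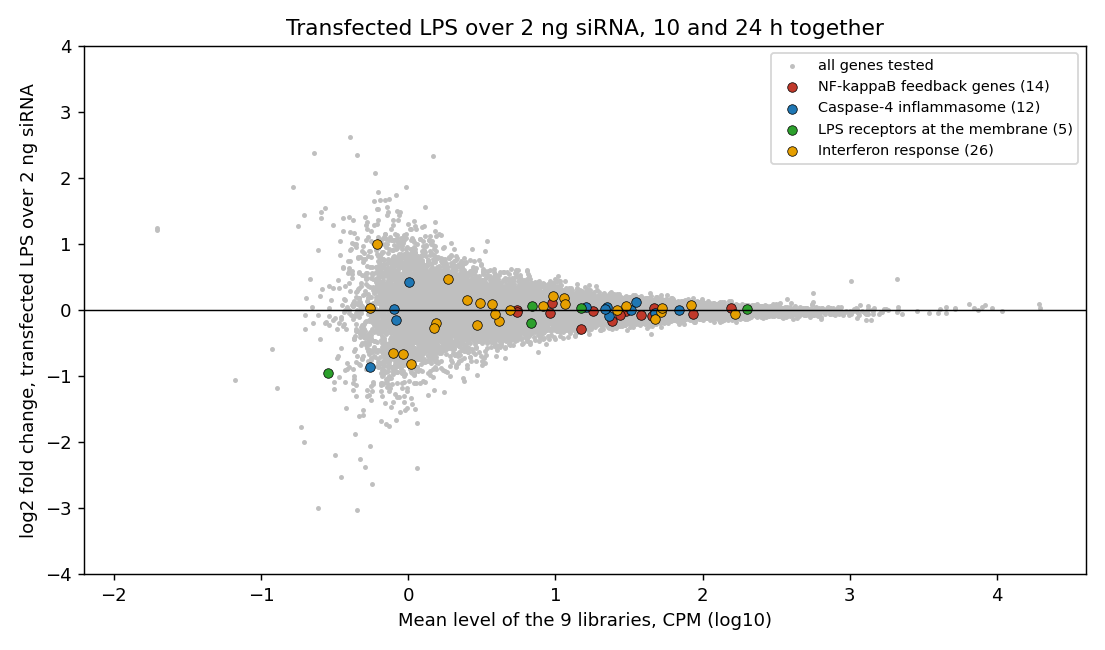
Log2 fold change of transfected LPS over 2 ng siRNA (vertical axis, both times together) against the mean level of the 9 libraries in CPM (log10 axis) for the 19233 genes tested, with 4 gene lists coloured. Coloured genes over 10 CPM sit close to 0, and the scatter widens towards low levels, where the median interval reach was 1.15.

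The receptor complex for extracellular LPS was hardly represented in these cells. TLR4 had 0 counts in all 5 LPS libraries and in all 4 siRNA libraries, which allows up to 0.0682 CPM over the 9 libraries (3 counts of 43963846, counting error only). Over the whole series it had 7 counts, in 6 libraries. LY96, which encodes MD-2, had 0 counts with LPS and 1 with siRNA, and LBP, the serum carrier of LPS, had 0 with LPS and 2 with siRNA. CD180 and LY86, a related receptor pair of B cells, had 0 counts in the 9 libraries. CD14, the co-receptor, was measured in every library. Its levels were 5.86, 9.44 and 7.04 CPM at 10 h and 3.59 and 7.72 CPM at 24 h with LPS, and 6.29 and 9.58 CPM at 10 h and 5.41 and 6.47 CPM at 24 h with siRNA. The arms overlapped at both times (log2 fold change −0.19 ± 0.20, 95% interval −0.60 to 0.21). SCARB1, a lipoprotein receptor that can take up LPS, averaged 199 CPM with LPS and 198 CPM with siRNA (0.02 ± 0.06). MSR1 (0.07 ± 0.19) and OLR1 (0.03 ± 0.24), scavenger receptors, also overlapped. ITGB2, an integrin chain of leukocytes, had 4 counts with LPS and 7 with siRNA. None of the 5 members tested of the 10 listed passed the test.

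Core genes of the cytosolic route were present at measurable levels, and none of its members passed the test. CASP4, the human sensor of LPS in the cytosol, had 19.35, 18.9 and 20.5 CPM at 10 h and 28.2 and 19.0 CPM at 24 h with LPS. With siRNA it had 25.8 and 15.97 CPM at 10 h and 28.8 and 17.7 CPM at 24 h. The LPS libraries lay inside the siRNA range at both times. The log2 fold change was 0.02 ± 0.12, with a 95% interval from −0.23 to 0.26. GSDMD had 27.5, 38.6 and 38.9 CPM at 10 h and 31.5 and 26.7 CPM at 24 h with LPS, against 33.0 and 31.8 CPM at 10 h and 30.7 and 33.5 CPM at 24 h with siRNA. Its estimate was 0.00 ± 0.09, with an interval from −0.19 to 0.19. NINJ1, which ruptures the membrane of dying cells, had −0.08 ± 0.11, and GSDME, a gasdermin cut by caspase-3, had 0.12 ± 0.10.

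Among the cytokines that caspases process, IL18 averaged 15.8 ± 4.9 CPM with LPS and 16.4 ± 5.9 CPM with siRNA (SD over both times, n = 5 and 4; log2 fold change 0.05 ± 0.17). IL1B had 11 counts in the LPS libraries and 9 in the siRNA libraries. CASP5 had 7 counts with LPS and 4 with siRNA, CASP1 had 3 with LPS and 5 with siRNA, and PYCARD, the inflammasome adaptor, had 8 with LPS and 11 with siRNA. NLRP3, the sensor that follows gasdermin pores in macrophages, had 0 counts in the whole series. The guanylate-binding proteins that load caspase-4 onto LPS were sparse: GBP1 had 6 counts with LPS and 4 with siRNA, GBP2 had 15 with LPS and 16 with siRNA, and GBP4 and GBP5 had 0. Of the 28 genes listed for this route, 12 could be tested, 15 had too few counts, and CARD17 had no entry under that name among the genes counted. Of those tested 0 passed, 0 reached an unadjusted p under 0.05, and the median log2 fold change was 0.01, against −0.0044 over all genes tested. The same held for the 20 adaptors and kinases tested between Toll-like receptors and NF-kappaB (0 at an unadjusted p under 0.05, median −0.02, range −0.07 to 0.19) and for the 8 NF-kappaB subunits and IKK genes (0, median 0.01, range −0.08 to 0.08).

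**Figure D3:**
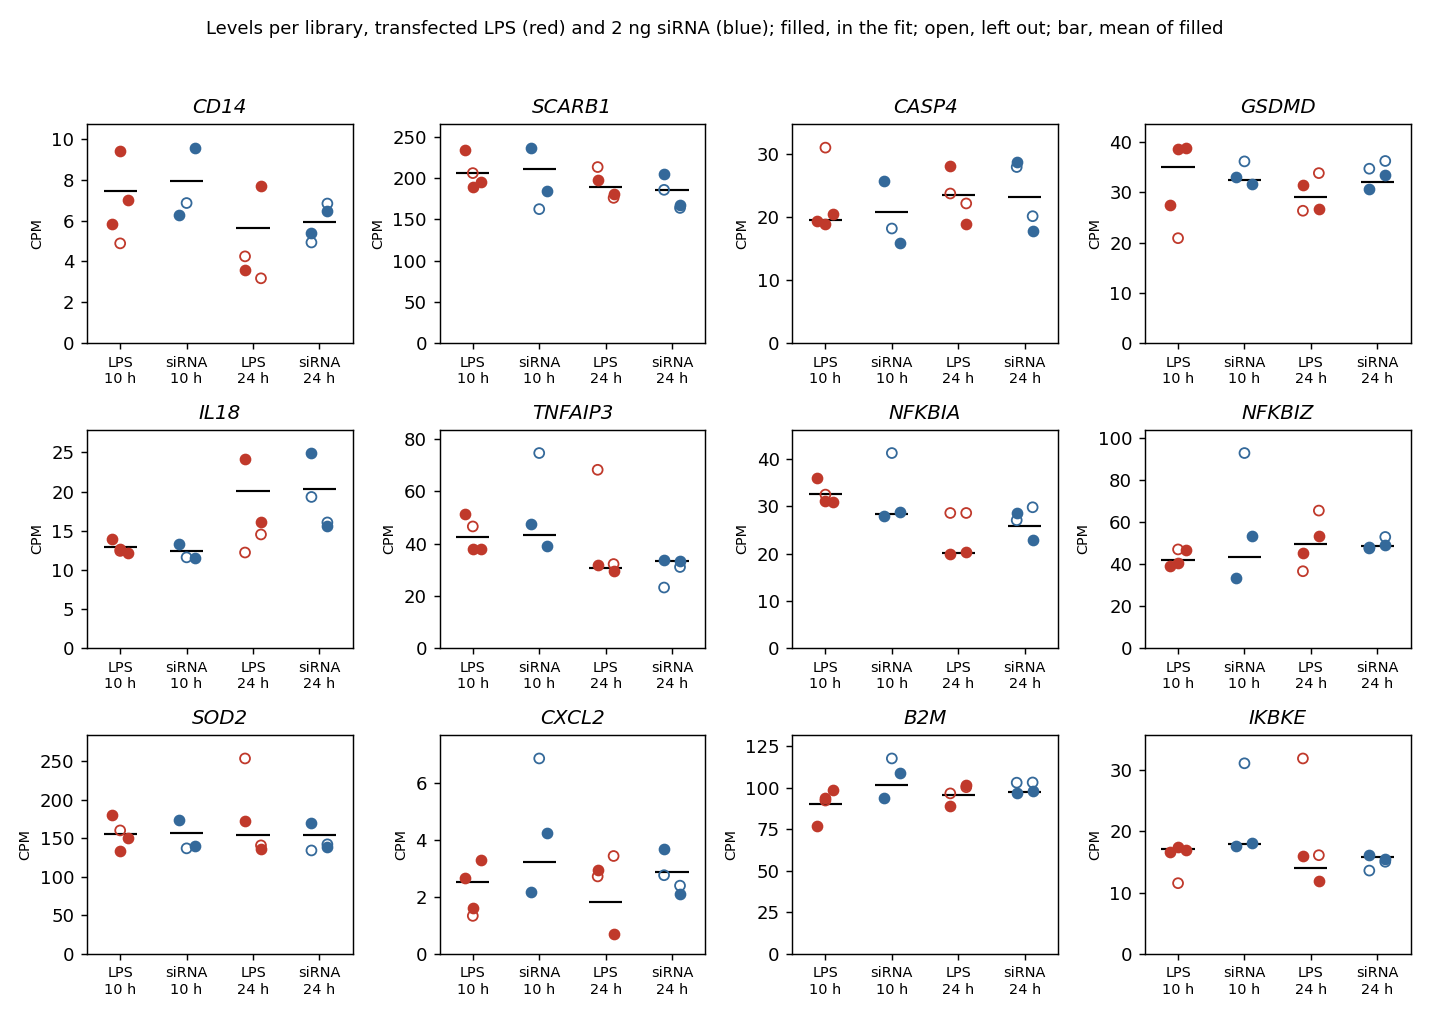
Levels in CPM (vertical axes, from 0) of 12 genes of LPS sensing and response in each library of transfected LPS (red) and 2 ng siRNA (blue) at 10 and 24 h, with bars at the mean of the libraries in the fit (filled). CASP4, GSDMD and SOD2 overlap between the arms at both times. Open points are left-out libraries, among them the LPS library with 68.3 CPM of TNFAIP3 and the siRNA library with 74.7 CPM.

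Targets and brakes of NF-kappaB were the next group. TNFAIP3 encodes A20, a ubiquitin-editing enzyme that shuts NF-kappaB signalling off. NFKBIA encodes the inhibitor that holds NF-kappaB in the cytosol, NFKBIZ a nuclear co-activator, and TNIP1 a partner of A20. Stretches of 60 bases before their start sites are shown because each holds a 10-base match to an NF-kappaB site, GGGANNTTCC, in capitals. IL32, a cytokine gene, and B2M, the light chain of MHC class I, are shown for the same reason and are described further on. Each sequence runs 5′ to 3′ on the strand of its gene, taken from RefSeq promoters of build GRCh38.p14. A match on the opposite strand reads GGAANNTCCC.

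TNFAIP3 (chr6:137867167-137867226, plus strand): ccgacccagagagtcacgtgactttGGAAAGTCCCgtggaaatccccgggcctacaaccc
NFKBIA (chr14:35404796-35404855, minus strand): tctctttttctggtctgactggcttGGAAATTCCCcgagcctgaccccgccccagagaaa
NFKBIZ (chr3:101827742-101827801, plus strand): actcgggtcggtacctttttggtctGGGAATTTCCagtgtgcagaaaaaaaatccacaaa
TNIP1 (chr5:151081042-151081101, minus strand): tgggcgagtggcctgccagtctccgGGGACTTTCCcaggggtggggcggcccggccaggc
IL32 (chr16:3065279-3065338, plus strand): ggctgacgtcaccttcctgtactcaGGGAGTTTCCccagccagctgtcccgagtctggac
B2M (chr15:44711367-44711426, plus strand): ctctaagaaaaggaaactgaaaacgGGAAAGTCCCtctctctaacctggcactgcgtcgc

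On either strand this motif was found in 564 of 35116 RefSeq promoters (1.61%), each a window of 300 bases from 250 before to 50 after the start. It was found in 6 of the 14 promoters matched to the 16 listed NF-kappaB targets. Genes past the test against OMVs, described further on, held it in both directions. It was in 3 of 18 matched promoters of genes lower for LPS (16.7%). Of genes higher for LPS it was in 1 of 12 (8.33%), that of CRYBG1. A match describes the letters only.

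With LPS, TNFAIP3 had 51.3, 38.0 and 38.1 CPM at 10 h and 31.97 and 29.5 CPM at 24 h. With siRNA it had 47.4 and 39.2 CPM at 10 h and 33.8 and 33.4 CPM at 24 h. The arms overlapped at 10 h, and at 24 h both LPS libraries were slightly below both siRNA libraries. The log2 fold change was −0.08 ± 0.09 over both times, with an interval from −0.26 to 0.10. NFKBIA had 35.9, 31.0 and 30.8 CPM at 10 h and 19.9 and 20.4 CPM at 24 h with LPS, against 27.9 and 28.7 CPM at 10 h and 28.6 and 22.9 CPM at 24 h with siRNA. Its LPS libraries were thus all above siRNA at 10 h (0.19 ± 0.15) and both below at 24 h (−0.33 ± 0.19). These estimates did not pass the test at either time, nor did the difference between the times, and the estimate over both times was −0.07 ± 0.12. SOD2, a mitochondrial superoxide dismutase that NF-kappaB induces, had 181, 134 and 151 CPM at 10 h and 172 and 136 CPM at 24 h with LPS. It had 173 and 139 CPM at 10 h and 169.9 and 139 CPM at 24 h with siRNA. The arms overlapped, and the estimate of 0.03 ± 0.05 had an interval from −0.07 to 0.14.

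Of the 14 NF-kappaB targets tested, 0 passed the test, and the 14 estimates ran from −0.29 to 0.11 with a median of −0.04. All 14 intervals lay within −1 and 1, and 11 within −0.5 and 0.5. NFKBIE, another cytosolic inhibitor, was the 1 gene of the list at an unadjusted p under 0.05. It had 22.9, 13.2 and 12.8 CPM at 10 h and 12.2 and 6.32 CPM at 24 h with LPS, against 22.8 and 17.4 CPM at 10 h and 16.8 and 10.2 CPM at 24 h with siRNA. The arms overlapped at both times (−0.29 ± 0.13, unadjusted p = 0.0272 in edgeR).

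Secreted signals were scarce in both arms. CXCL8, the neutrophil attractant, had 11 counts over the 5 LPS libraries and 11 over the 4 siRNA libraries, too few to be tested. TNF had 0 counts in either arm, and IL6 had 2 counts with LPS and 1 with siRNA. CXCL1 had an estimate of 0.09 ± 0.52 and CXCL2 of −0.32 ± 0.28, and CCL20, which draws lymphocytes and dendritic cells, of −1.14 ± 0.83 at 0.317 CPM with LPS and 0.603 CPM with siRNA. CXCL16 was the best measured chemokine, at 60.1 CPM with LPS and 59.0 CPM with siRNA (0.09 ± 0.08). Of the 8 chemokines tested, 0 passed and 0 reached an unadjusted p under 0.05. CXCL5 is one of these 8 and had 1 count with LPS and 0 with siRNA, so no fold is given for it. Of 11 cytokine and TNF family genes, CSF1 alone reached an unadjusted p under 0.05. It had 0.887, 2.16 and 2.48 CPM at 10 h and 0 CPM in both libraries at 24 h with LPS, against 0.787 and 1.77 CPM at 10 h and 0.386 and 1.80 CPM at 24 h with siRNA.

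Among the 26 interferon response genes tested, of 42 listed, 0 passed and 0 reached an unadjusted p under 0.05 (median 0.02, range −0.81 to 0.99). OAS3, an RNA-sensing synthetase, had −0.03 ± 0.08. IFNB1 had 0 counts in the whole series. The 9 nucleic acid sensors tested (median −0.01, range −0.30 to 0.10) and the 7 other Toll-like and NOD receptors tested (median −0.03, range −0.13 to 0.19) likewise held no gene at an unadjusted p under 0.05. The receptor list includes TLR2, the receptor of bacterial lipoproteins, at 10.8 CPM in both arms. Among 13 genes that bind or detoxify LPS, ALPI, the intestinal alkaline phosphatase, had −0.06 ± 0.10, and ALPG, a germ cell alkaline phosphatase, had 3.43 CPM with LPS and 2.20 CPM with siRNA (0.63 ± 0.30, unadjusted p = 0.0396 in edgeR). Near-identical alkaline phosphatase genes share sequence, so that their counts are uncertain.

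The remaining lists covered stress, metabolism and the epithelial state. None of their members passed the test, and the medians of all 30 lists lay between −0.12 (cytokines and TNF family) and 0.19 (8 leukocyte markers). The 32 genes of sterol and fatty acid synthesis had estimates from −0.06 to 0.16 and the 30 of mitosis and DNA replication from −0.09 to 0.12, with all intervals within −0.5 and 0.5. The 19 ER chaperones ran from −0.13 to 0.09, also with all intervals within −0.5 and 0.5. The 26 genes of tight junctions and desmosomes ran from −0.18 to 0.11. A few single members reached an unadjusted p under 0.05. HSPD1, a mitochondrial chaperone, had −0.12 ± 0.06, and NQO1, a quinone reductase under NRF2 and AhR, had −0.19 ± 0.07. EPCAM, the epithelial adhesion molecule, had −0.11 ± 0.05 at 521 CPM with LPS and 556 CPM with siRNA. CD74, the MHC class II invariant chain, had −0.24 ± 0.08, with LPS values of 43.7, 40.7, 39.9, 42.4 and 33.0 CPM against 54.7, 41.5, 47.5 and 45.3 CPM with siRNA. PECAM1, an endothelial adhesion gene among the stromal markers, had 8.16, 4.04, 5.79, 6.52 and 6.32 CPM with LPS against 3.93, 3.02, 6.38 and 4.36 CPM with siRNA (0.57 ± 0.21).

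**Figure D4:**
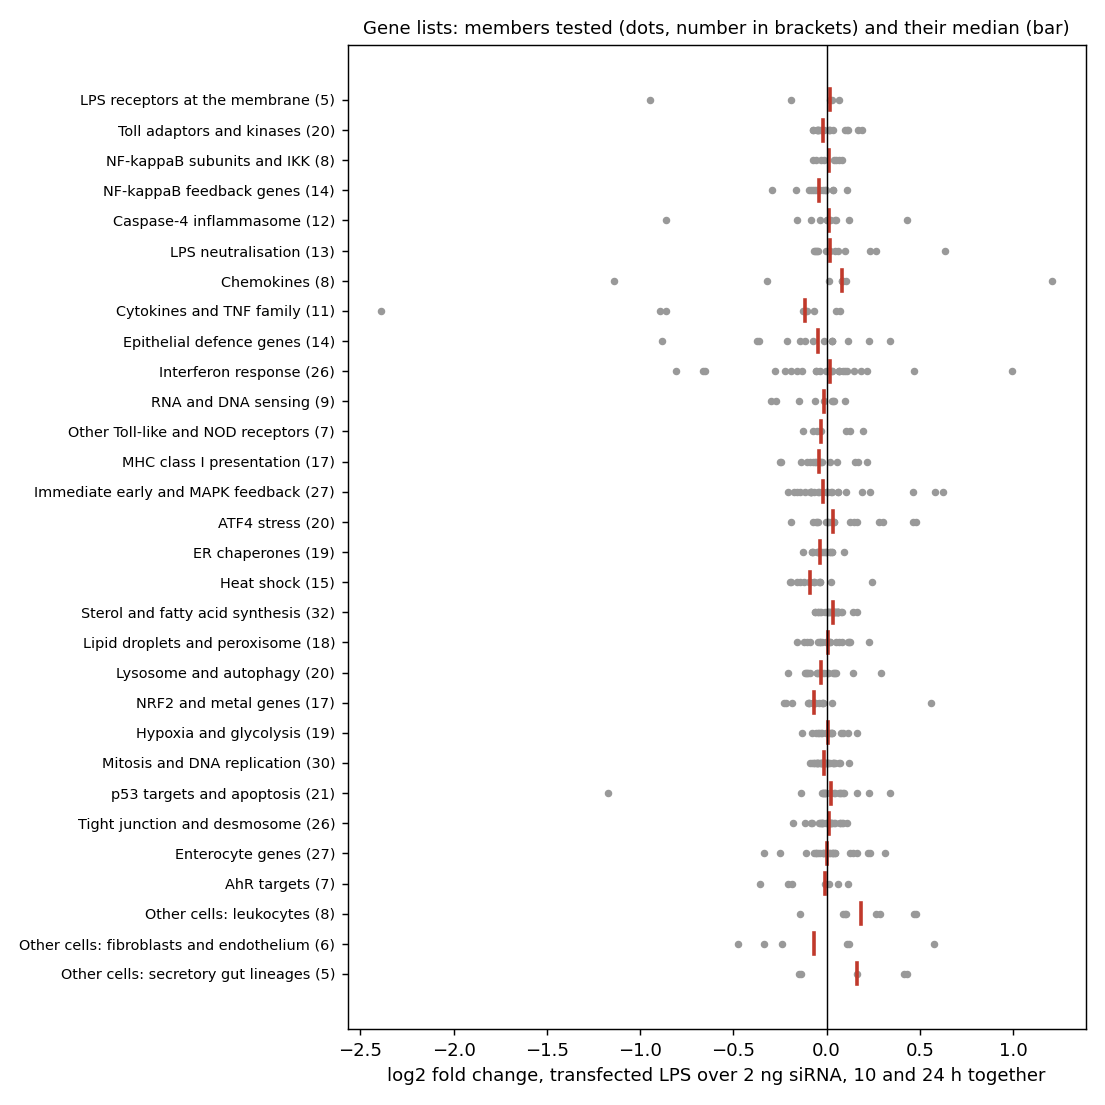
Log2 fold change of transfected LPS over 2 ng siRNA (horizontal axis, both times together) for the members tested of 30 gene lists (grey dots, number in brackets), with the median of each list as a red bar. The medians lie between −0.12 and 0.19, and the dots far from 0 are genes at low counts.

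Outside the lists, the genes with the smallest p in each direction and the same sign at both times did not pass either. Among those higher with LPS were SUPT7L, a subunit of a histone acetyltransferase complex, at 61.2, 65.25, 52.98, 67.8 and 59.7 CPM with LPS against 55.85, 51.1, 56.0 and 49.2 CPM with siRNA (0.23 ± 0.07). TOP3B, a topoisomerase (0.25 ± 0.08), GALT, an enzyme of galactose breakdown (0.60 ± 0.20), GPER1, an oestrogen receptor of the membrane (0.89 ± 0.29), CCDC191 (0.92 ± 0.30) and ZNF850 (0.40 ± 0.13) were others. TTC28-AS1 (0.38 ± 0.12) and LPP-AS2 (0.44 ± 0.15) are antisense RNAs, whose reads cannot be told from those of the gene opposite, since no strand setting is stated for the counting. Among those lower with LPS were HEATR3, which helps to import ribosomal proteins, at 57.0, 53.4, 50.1, 47.3 and 33.0 CPM with LPS against 68.2, 54.7, 56.4 and 50.5 CPM with siRNA (−0.26 ± 0.07). RETREG2, a relative of an ER-phagy receptor (−0.22 ± 0.07), WASHC2A, of an endosomal actin complex (−0.20 ± 0.07), and ERMARD (−0.51 ± 0.16) were others. All of these had an adjusted p of 1.00 in edgeR.

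A size rule without a p-value gave another count. The methods of the study call a gene at an absolute log2 fold change above 1 in DESeq2 with an absolute Cohen's d (difference over pooled SD) above 0.8. Applied at 10 h to 4 LPS and 3 siRNA libraries, the doubted lanes included, this rule had 3608 of 35131 genes with a count past it (10.3%), 1513 higher (4.31%) and 2095 lower (5.96%). At 24 h, with 4 LPS and 4 siRNA libraries, it had 3331 of 36345 genes past it (9.16%), 1171 higher (3.22%) and 2160 lower (5.94%). The same DESeq2 fits had 0 genes at an adjusted p under 0.05 at either time. The median gene past the rule had a mean normalised count of 0.671 at 10 h and 0.697 at 24 h.

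The next question was whether the route of LPS mattered. The effect of transfected LPS over siRNA minus the effect of LPS in the medium over PBS passed the test for 0 of 19233 genes (0%; 623 at an unadjusted p under 0.05, 3.24%). Neither DESeq2 nor voom called any gene there (0 each, with 473 and 684 unadjusted). LPS in the medium over PBS passed for 0 genes as well (560 unadjusted, 2.91%). The doses of both routes differ, so these values stand side by side. The labelled concentration was higher for transfected LPS, but the study's supplementary legend gives a far larger volume for the medium. By these volumes a transfected well got less LPS in total than a well with LPS in the medium. TNFAIP3 had −0.08 ± 0.09 for the transfected and 0.07 ± 0.09 for the medium route. CASP4 had 0.02 ± 0.12 for the transfected and 0.08 ± 0.12 for the medium route. The smallest adjusted p of the difference was 0.299 in edgeR, for the long noncoding RNA PTCHD1-AS.

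Against cells transfected with OMV-RNA, transfected LPS differed in 1 gene. PUS7L, a pseudouridine synthase-like gene, was lower with LPS by a log2 fold change of −0.31 ± 0.06 (adjusted p = 0.0301 in edgeR, 1 of 19233 genes or 0.0052%; 1424 unadjusted, 7.4%). It had 149, 111 and 109 CPM at 10 h and 107 and 86.4 CPM at 24 h with LPS. With OMV-RNA it averaged 153 ± 27 CPM at 10 h (SD, n = 2) and 119 ± 17 CPM at 24 h (SD, n = 3). The levels of the arms overlapped, and PUS7L passed in 8 of 21 alternatives. The fit without the replicate number as a block, the fits with all libraries, the fit without the robust option and those leaving out any 1 of 8 of the 10 libraries called 0 genes. TNFAIP3 was at −0.21 ± 0.09 and CASP4 at 0.06 ± 0.13 in this comparison, and neither passed. Of 27 immediate early and MAPK feedback genes 0 passed, but 10 were lower with LPS at an unadjusted p under 0.05 in edgeR. Their median was −0.23, against 0.0073 over all genes tested. For LPS over siRNA the median of this list was −0.02, and for OMV-RNA over siRNA it was 0.24. The list was picked here after its values were seen.

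Whole OMVs changed genes that transfected LPS did not, and this difference was tested directly. The effect of transfected LPS over siRNA minus that of OMVs over PBS passed the edgeR test for 43 of 19233 genes (0.224%), 26 lower (0.135%) and 17 higher (0.0884%) for LPS, with 1412 (7.34%) at an unadjusted p under 0.05. Each pair has its own control, since OMVs were added without transfection reagent. The study's own LPS control for whole OMVs was LPS in the medium, so route and reagent differ here. By the volumes in the study's supplementary legend, that control held more LPS per well than the transfected wells. The amount of LPS may thus differ here as well. Of the 26 genes lower for LPS, 25 were raised by OMVs over PBS, and their estimates under transfected LPS ran from −0.37 to 0.03. The difference contains the OMV effect, and no gene passed for LPS over siRNA. The direction of the OMV effect thus follows largely from how these genes were picked. PI3 encodes elafin, an antiprotease of inflamed mucosa. It had 16.2, 22.4 and 16.8 CPM at 10 h and 10.9 and 14.7 CPM at 24 h with LPS, against 16.3 and 20.9 CPM at 10 h and 11.98 and 18.6 CPM at 24 h with siRNA. OMV-treated cells averaged 76.997 ± 20.3 CPM at 10 h (SD, n = 3) and 54.6 ± 17.2 CPM at 24 h (SD, n = 2), against 20.4 ± 5.1 CPM and 14.3 ± 1.6 CPM in PBS cells (SD, n = 2 each). The log2 fold change was −0.12 ± 0.15 for transfected LPS and 1.92 ± 0.12 for OMVs, and the difference of −2.03 ± 0.19 had an adjusted p of 1.09e-11 in edgeR.

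C3, the central complement protein, had 65.7, 87.1 and 88.6 CPM at 10 h and 44.9 and 68.1 CPM at 24 h with LPS, against 52.1 and 75.9 CPM at 10 h and 50.2 and 74.6 CPM at 24 h with siRNA. It was at 242 ± 14 CPM at 10 h and 234 ± 27 CPM at 24 h with OMVs, against 71.4 ± 12.4 CPM and 59.5 ± 10.4 CPM with PBS. The effects were 0.03 ± 0.15 for transfected LPS and 1.83 ± 0.14 for OMVs. TNFAIP3 was raised by OMVs by 1.05 ± 0.08, SOD2 by 0.48 ± 0.05, IL32 by 0.68 ± 0.07 and B2M by 0.27 ± 0.07, and each differed from its estimate under transfected LPS (−0.08 ± 0.09, 0.03 ± 0.05, −0.12 ± 0.08 and −0.13 ± 0.07) past the edgeR threshold. Also among the 26 were the kinase IKBKE, the NF-kappaB subunit RELB, SAT1 of polyamine breakdown, the collagenase MMP1, the epithelial factor EHF, the syndecan SDC4, the desmosomal PERP, the interferon gamma receptor IFNGR1 and the antigen presentation genes HLA-E and TAPBP, of which HLA-E belongs to a family of near-identical genes. The gene with the smallest p is annotated as OR2I1P, an olfactory receptor pseudogene (−1.97 ± 0.20). Its span shares 2259 bases with UBD on the opposite strand, a ubiquitin-like gene that inflammatory cytokines induce, and without a stated strand their reads cannot be told apart.

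Among the 17 genes that were higher for LPS, 16 were lowered by OMVs over PBS, which again follows largely from how they were picked. The estimates of the 17 under transfected LPS ran from −0.06 to 1.01. DPP4, a brush border peptidase, had −0.06 ± 0.05 for LPS and −0.39 ± 0.05 for OMVs. PTCHD1-AS (1.01 ± 0.39), PECAM1 (0.57 ± 0.21), CRYBG1 (0.23 ± 0.09) and TNS1 (0.17 ± 0.08) had LPS estimates whose 95% intervals lay above 0, although none passed the edgeR test of LPS over siRNA after adjustment. The genes were picked on a difference that contains these estimates, which favours high ones. PTCHD1-AS had 8.81 CPM in the LPS library at 24 h, replicate 2, and 0 to 2.31 CPM in the other fitted LPS libraries. The fitted siRNA libraries had 0 to 3.09 CPM of it. Its LPS estimate ran from −1.62 to 2.56 over 21 alternatives. GJB1, a gap junction gene, LDHD, of lactate metabolism, NYNRIN and STUM were others of the 17. The exceptions, whose own OMV effect did not pass, were PECAM1 among the 17 (difference 1.36 ± 0.30) and HEATR3 among the 26 (difference −0.42 ± 0.10).

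**Figure D5:**
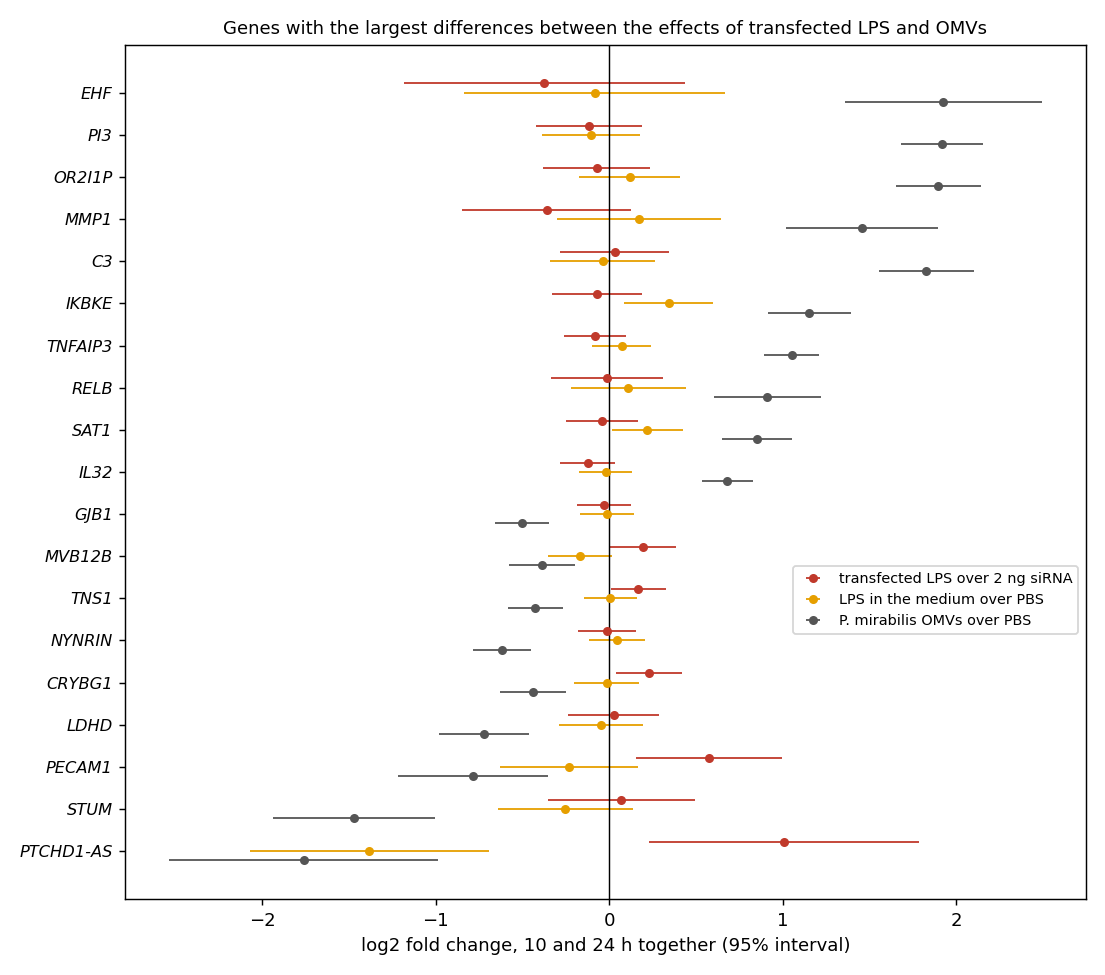
Log2 fold changes with 95% intervals (horizontal axis, both times together) of the 10 genes lowest and 9 of the 10 highest for transfected LPS against OMVs among those past the test, for transfected LPS over siRNA (red), LPS in the medium over PBS (orange) and OMVs over PBS (grey). C3 lies at 0.03 for transfected LPS and at 1.83 for OMVs, and for most genes the red and orange intervals hold 0.

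The genes of the OMV effect were also followed under transfected LPS. OMV libraries belong to neither arm of LPS over siRNA, but all libraries share the replicate terms and the estimate of spread of 1 fit. OMVs over PBS passed the edgeR test for 152 of 19233 genes (0.79%), 79 raised and 73 lowered. Of these 152 genes, 0 passed and 3 (1.97%) reached an unadjusted p under 0.05 under transfected LPS, which is no more than the 2.98% of all genes tested. The 79 genes raised by OMVs had a median log2 fold change of 0.54 with OMVs and −0.04 with transfected LPS, and 24 of them were above 0 with LPS. The 73 genes lowered by OMVs had medians of −0.40 with OMVs and 0.03 with LPS. For 151 of the 152 genes the 95% interval under transfected LPS ended short of the estimate for OMVs, and CXCL5 was the exception. The OMV estimates are of genes picked for passing and were taken here without their own error. This count is therefore not a test of the difference, and the direct test above passed 43 genes.

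The difference between transfected LPS and OMVs was sensitive to how the libraries were chosen. Without the replicate number as a block the test passed 7 of the 43 genes, all of them lower for LPS, and with all libraries of the series it passed 0 genes, with or without the block. The fits with all libraries include the LPS, siRNA and OMV libraries whose C3 levels go against their labelled treatment, and the part of these libraries in the lost calls was not tested. The difference for C3 was −1.53 in the fit with all libraries and the block and −1.50 without the block. It was −1.80 without the doubted lanes and ran from −1.87 to −1.50 over 29 alternatives. Other genes moved more over these alternatives, without a change of sign. PI3 ran from −2.10 to −1.16, TNFAIP3 from −1.21 to −0.54, IL32 from −0.96 to −0.18 and OR2I1P from −2.05 to −0.50. NYNRIN, higher for LPS, ran from 0.11 to 0.67.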

How the data were processed

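Caco-2 libraries were depleted of ribosomal RNA and sequenced in paired-end mode. Per the labels and the study's methods, the authors aligned reads with STAR to GRCh38, removed duplicates with sambamba, and deposited raw counts per gene from featureCounts, with no strand setting named. Values here start from those counts (63241 genes), with groups taken from the labels.

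Genes were kept by edgeR's filterByExpr (19233 genes) and fitted in edgeR 4.0.16 (R 4.3.3; TMM, quasi-likelihood, robust) on 66 libraries, with a term per treatment and time and the replicate number as a block. The 3 doubted lanes were left out. P-values were adjusted by Benjamini-Hochberg over all genes tested, with a threshold of 0.05, and intervals are 95%. CPM are counts scaled by TMM to a library size of 1000000. Replicate numbers come from the titles. Deviations of same-numbered LPS and siRNA libraries correlated at 0.49 at 10 h and 0.43 at 24 h. With 2 pairs at each time, both pairs give the same value by construction. With the doubted lanes included, single pairs ran from −0.03 to 0.36 at 10 h and from −0.29 to 0.50 at 24 h.

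Alternatives were all libraries, no filter, DESeq2 1.42.0, limma 3.58.1 voom, other scalings and blocks, pooled siRNA doses, and leaving out each library. Code was tested on simulated data. By the rule for named genes, the text names up to 10 genes past a test in each direction with the highest and lowest change. Where fewer passed, genes of smallest p with the same sign at both times and a mean of at least 1 CPM filled the 10. The rule adds the members of 3 lists (membrane receptors, caspase-4 route, NF-kappaB feedback) and the 2 of smallest p in each other list. Other genes named were chosen after their values were seen, and 2 genes are not reported here. Gene lists and members were chosen with earlier results of these data known. These intervals come from the quasi-likelihood fit and so hold the spread between libraries as well as counting error.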

Additional observations from a re-analysis of the deposited data

Results flagged for a closer look

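The 3 groups of 4 libraries (LPS at 10 h, LPS at 24 h and siRNA at 24 h, left-out lanes included) were each examined for 10 quantities. In 2 of these 30 tests, which share libraries, 1 library stood far from the other 3, and chance alone flags about 1 in 20. CASP4 had 31.1 CPM in the left-out LPS library at 10 h labelled replicate 5, against 18.9 to 20.5 CPM in the other LPS libraries of that time. TNFAIP3 had 68.3 CPM in the left-out LPS library at 24 h labelled replicate 4, against 29.5 to 32.2 CPM in the other LPS libraries of that time. Both libraries come from the lanes that were left out of the fit.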

How the results depend on the processing

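The counts of 0 for transfected LPS over siRNA (both times, 10 h, 24 h, and the difference between the times) stayed at 0 in all 12 other fits and in each fit leaving out 1 library. The fit with the flow cell as a further term was chosen after seeing the data, and it gave 0 for these counts as well. At an unadjusted p under 0.05 the count over both times ran from 280 to 1186 over these alternatives. The rule of effect size, run on all 15 libraries with no filter on low counts and no p-value, gave 3608 genes at 10 h and 3331 at 24 h.

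Without the replicate number as a block, the comparison of transfected LPS with OMV-RNA called 0 genes, and the difference from OMVs called 7 genes. A block within each time gave 2 genes against OMV-RNA and 167 for the difference from OMVs, with all 43 among them, and the other 5 counts kept their value of 0 under either change of block. With all libraries of the series both comparisons called 0 genes, with and without the replicate block. Without a filter on low counts they called 3 genes against OMV-RNA and 79 for the difference from OMVs. Against OMV-RNA, DESeq2 called 2 genes, voom 2, the fit without the robust option 0, and the fit on the libraries of that comparison alone 15. Leaving out 1 library gave 0 to 4 genes against OMV-RNA (4 without OMV-RNA at 10 h replicate 2, 3 without OMV-RNA at 24 h replicate 2, and 0 without any other), 0 to 1 for the route of LPS (1 without PBS at 10 h, replicate 2) and 20 to 48 for the difference from OMVs (highest without PBS at 24 h, replicate 3). For OMVs it was 20 without LPS at 24 h replicate 2, 21 without PBS at 10 h replicate 3, 23 without siRNA at 24 h replicate 3, 24 without siRNA at 10 h replicate 2, 25 without PBS at 24 h replicate 2, 27 without LPS or OMVs at 10 h replicate 2 and 28 without LPS at 24 h replicate 3. The cause of these changes was not tested.

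C3, PI3 and TNFAIP3 each differed between LPS and OMVs past the threshold in 27 of 29 alternatives. Other named genes passed less often: PECAM1 in 16 of the 29, GJB1 in 12, RELB in 9 and LDHD in 8. PUS7L differed between LPS and OMV-RNA in 8 of 21. With 2 to 3 libraries per arm and time, and 1395294 counts in the shallowest, genes under 1 CPM are poorly resolved.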

Other observations

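The left-out LPS library at 24 h labelled replicate 4 also had 253.8 CPM of SOD2, 153.9 CPM of IL32 and 105.5 CPM of OLR1, a scavenger receptor. The other 7 LPS libraries had 133.7 to 180.5 CPM of SOD2, 35.1 to 74.3 CPM of IL32 and 7.99 to 20.4 CPM of OLR1. The left-out siRNA library at 10 h labelled replicate 5 had 92.9 CPM of NFKBIZ, against 33.4 to 53.6 CPM in the other 6 siRNA libraries.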
